A study of Mus musculus with 7 samples.

Results

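Mitosis and spindle genes, a fixed list of 55 symbols, were followed gene by gene in sorted mouse thymocytes. The list holds the genes for the kinase CDK1 and its cyclins, the mitotic kinases, the spindle checkpoint, the kinetochore, the mitotic kinesins, spindle proteins, mitotic chromosome proteins and cytokinesis factors. The members are named by symbol, were listed with earlier results of these data known, and make up 55 of the 32286 features counted. Each was measured as unique molecular identifiers (UMIs, tags that mark single transcript molecules) in single-cell RNA libraries, summed over the thymocyte barcodes of a library and given per 1000000 UMIs of those barcodes (CPM). Thymocyte barcodes were those with at least 200 genes, at most 15% mitochondrial UMIs and at most 1 UMI of the B cell genes Cd79a, Cd79b and Ms4a1 together.

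Double-negative (DN) thymocytes carry neither CD4 nor CD8. They rearrange their T cell receptor (TCR) genes at the DN3a stage and become DN3b and then DN4 cells after selection on a pre-TCR (αβ path) or on a γδ TCR (γδ path). WT C57BL/6 mice of 6 to 8 weeks gave 5 libraries from pooled thymi depleted of CD4+ and CD8+ cells. They were DN3a, the DN3b and DN4 stages without surface γδ TCR (γδ-) and the same 2 stages with it (γδ+). Mice of the genotype Lat-/-TCRd-H2BEGFP on the same strain gave 2 DN3 libraries, 1 of γδ- cells and 1 of cells with intermediate surface γδ TCR (γδint). These mice lack LAT, an adaptor that links the TCR to its downstream signals, in all cells, and both Lat-KO libraries also carry the TCRd-H2BEGFP reporter, which no WT library has. CD71, the transferrin receptor, which dividing cells carry, was part of the sort of both γδ- stages in WT and not of the γδ+ or Lat-KO cells, so the gates themselves can set part of the levels below. It set DN3b γδ- apart from DN3a, so the DN3a gate rested on CD71 as well. All sorted cells were NK1.1-, and γδ+ cells were CD24+ and low in CD44. Each library received 500 splenic B cells before capture.

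There was 1 library per group, which allows neither a test of any difference nor a replicate error. The 95% intervals cover counting error only, and libraries and groups cannot be told apart. The deposited libraries held 49407750 to 375688164 UMIs, and 5274 to 18515 barcodes of each were thymocyte barcodes, with medians of 5738 to 18506 UMIs. Lat was at 357 to 648 CPM in the WT libraries, 4.83 CPM in Lat-KO γδ- and 0.899 CPM in Lat-KO γδint. The 10 T cell markers summed to 3754 to 11931 CPM in thymocyte barcodes and 395 to 1078 CPM in the spiked B cells. Lat-KO DN3 γδint stood apart, with ribosomal protein genes at 15.9% of UMIs against 25.7 to 31.3% in the others. Its B cells showed the same, at 17.3% against 27.9 to 33.9%. Pairs of libraries shared 18 to 93 barcode sequences, which was at most 0.713% of the smaller library.

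Entry into mitosis is driven by CDK1 bound to cyclin A or cyclin B, which Cdc25 phosphatases switch on. Spindle microtubules, moved by kinesins and bundled by spindle proteins, attach to chromosomes at the kinetochore, while condensins and topoisomerase II compact and untangle the chromosomes. The spindle checkpoint holds the anaphase-promoting complex, with its activator CDC20 and its ubiquitin-conjugating enzyme UBE2C, until all chromosomes are attached. Most of these transcripts build up late in the cell cycle, in G2 and M phase. In the thymus, DN thymocytes are known to divide rapidly just after selection.

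Summed over the 55 genes, the level was lowest in WT DN3a, at 954 CPM. It was 6565 and 6268 CPM in the γδ- DN3b and DN4 libraries, and on the γδ path 6039 in DN3b and 3703 in DN4. The Lat-KO libraries lay apart from each other, at 1701 CPM in DN3 γδ- and 4658 in DN3 γδint. Of the 55 members, 53 were lowest in WT DN3a. The exceptions were Smc4, lowest in DN3b γδ- (with trimmed-mean scaling, TMM, in Lat-KO γδ-), and Kpna2, lowest in Lat-KO γδ-. DN3b γδ- held the highest level of 35 members, DN4 γδ- of 8, DN3b γδ+ of 6, Lat-KO γδint of 5 and DN4 γδ+ of 1. The 5 of Lat-KO γδint were Bub3, Kif23, Smc4, Knstrn and Pimreg, and the 1 of DN4 γδ+ was Cdc25b, at the level of the B cells there. These peaks hold for scaling to the total. With TMM scaling 39 and 13 members peaked in the γδ- DN3b and DN4 libraries, 3 in DN3b γδ+ and 0 in Lat-KO γδint or DN4 γδ+. Bub3 and Smc4 alone stayed highest in γδint in each of 4 other settings (a total without mitochondrial, ribosomal and haemoglobin genes, leaving out the 8% of barcodes with most UMIs, thinning to 4000 UMIs, the mean share per barcode), in which Kif23 was highest in DN3b γδ-. These settings were compared for the peaks after seeing the data.

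The spiked B cells were read the same way as a background. In their barcodes the members summed to 365 CPM in WT DN3a, 1958 and 1978 in the γδ- DN3b and DN4 libraries, 2063 and 593 in their γδ+ counterparts, and 478 and 1176 in Lat-KO γδ- and γδint. These are 16 to 38.3% of the level in the thymocyte barcodes, and in B cells too WT DN3a, Lat-KO γδ- and DN4 γδ+ were the lowest, in that order. What B cells themselves express and what free RNA brought in cannot be told apart. By gene, the B cell level was over 20% of the thymocyte level for 25, 42, 50, 48, 12, 22 and 33 of the 55 members in the same order. It was at or above the thymocyte level for 6 members in WT DN3a, which were Cdc25b, Cenpa, Kif20b, Ndc80, Spc25 and Anln. Elsewhere Cdc25b was the member for which this held, in DN3b γδ-, DN4 γδ- and both Lat-KO libraries. Of Cdc25b, B cells had 12.3 CPM in WT DN3a and 54.8 and 38.7 in the γδ- DN3b and DN4 libraries. In their γδ+ counterparts it was 25.2 and 31.2, and in Lat-KO γδ- and γδint 71.4 and 47.7. Its thymocyte level stood clearly above that of the B cells in no library, so the B cells give no usable background for its differences. How far free RNA fills the differences between thymocyte libraries was not tested. No member was at 0 in any library, and the thinnest count was Pif1 in WT DN3a, with 6 UMIs.

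**Figure D1:**
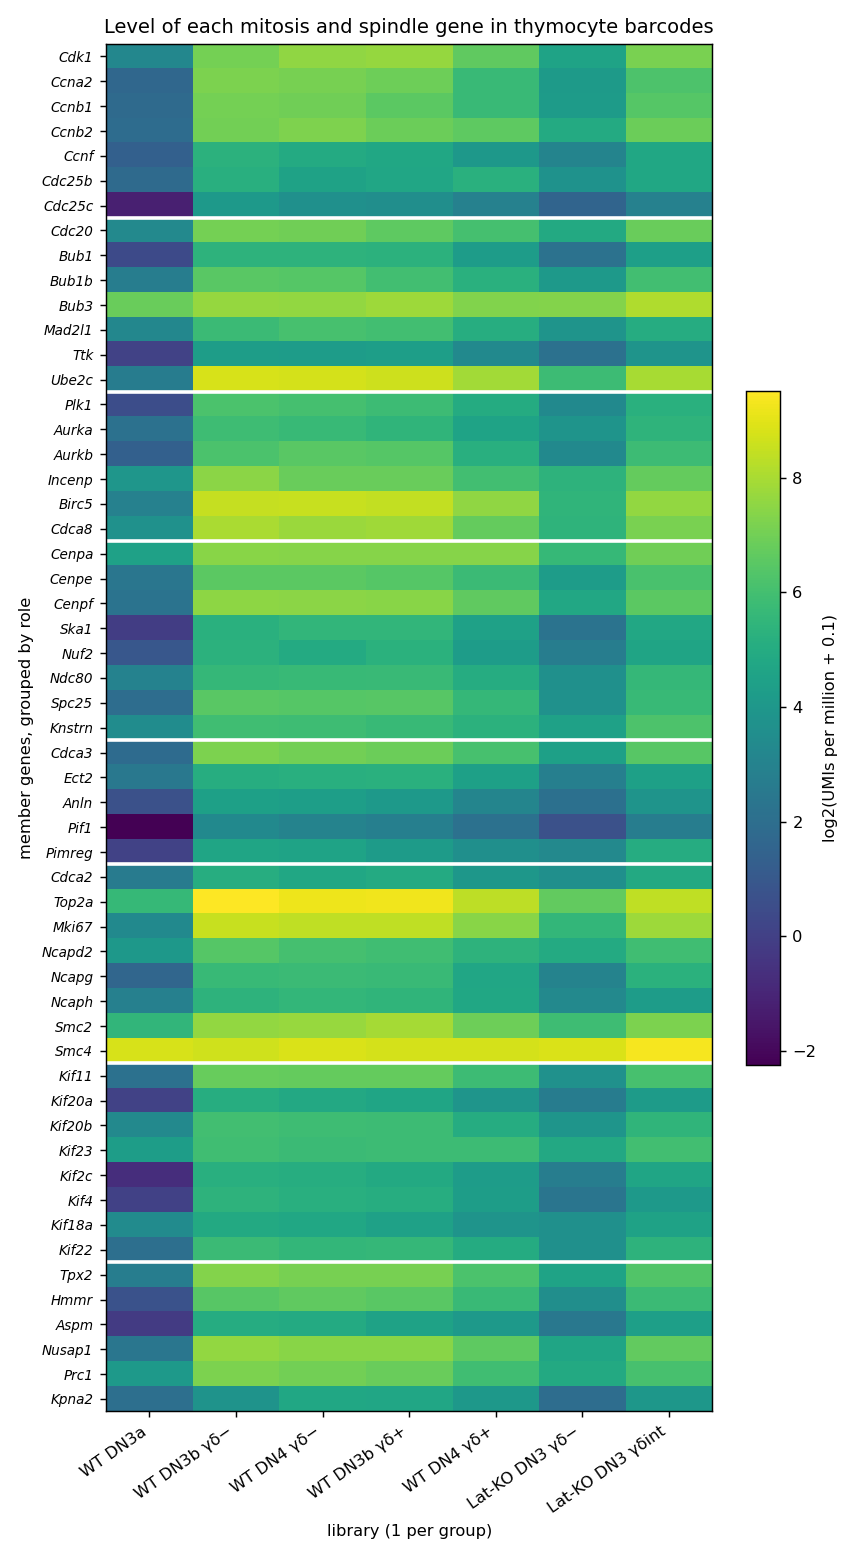
Heat map of the 55 mitosis and spindle genes (rows, in role groups parted by white lines) in the 7 libraries (columns), coloured by log2 of CPM plus 0.1. The WT DN3a column is the darkest for 53 genes, Lat-KO DN3 γδ- is the next darkest for most, and Smc4 is bright in each column, at 409 to 651 CPM.

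Of the genes for mitotic entry, Cdk1, the kinase itself, was at 9.18 CPM in WT DN3a, 133 and 187 in the γδ- DN3b and DN4 libraries, 204 and 102 in their γδ+ counterparts, and 24 and 142 in Lat-KO γδ- and γδint. It is the member of this group with its peak in DN3b γδ+, and the lowest value was that of WT DN3a. Ccna2, which encodes cyclin A2, was at 3.15 CPM in WT DN3a, 146 and 139.7 in the γδ- DN3b and DN4 libraries, 123 and 52.8 in their γδ+ counterparts, and 17.9 and 76.1 in Lat-KO γδ- and γδint. Ccnb1, for cyclin B1, was at 3.44 CPM in WT DN3a, 133 and 125 in the γδ- DN3b and DN4 libraries, 92.7 and 52.8 in their γδ+ counterparts, and 18.3 and 86.6 in Lat-KO γδ- and γδint. Ccnb2, for cyclin B2, was at 3.65 CPM in WT DN3a, 130.1 and 149.9 in the γδ- DN3b and DN4 libraries, 117 and 97.2 in their γδ+ counterparts, and 31.2 and 117 in Lat-KO γδ- and γδint. The cyclin genes thus had their highest levels in the γδ- libraries, Ccna2 and Ccnb1 in DN3b and Ccnb2 in DN4. A pseudogene, Ccnb1-ps, holds 31% of the 50-base words in the last 500 bases of Ccnb1 transcripts (GENCODE vM21), so reads from there can be lost to counting and the level of Ccnb1 is uncertain. The phosphatase genes Cdc25b and Cdc25c ranged from 3.39 to 37.1 and from 0.335 to 16.9 CPM, and Ccnf from 2.49 to 39.6 CPM.

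Among the kinases, Plk1, which acts from mitotic entry to cytokinesis, was at 1.34 CPM in WT DN3a, 73.2 and 66.8 in the γδ- DN3b and DN4 libraries, 57.3 and 32.2 in their γδ+ counterparts, and 10.1 and 37.1 in Lat-KO γδ- and γδint. Aurka, the Aurora kinase of the centrosomes and spindle poles, was at 4.32 CPM in WT DN3a, 57.9 and 51 in the γδ- DN3b and DN4 libraries, 43.8 and 23.7 in their γδ+ counterparts, and 14.2 and 41.9 in Lat-KO γδ- and γδint. Both were highest in DN3b γδ-, and of the selected WT libraries lowest in DN4 γδ+. Aurkb, the Aurora kinase of the chromosomal passenger complex, was at 2.49 CPM in WT DN3a, 73.5 and 91.2 in the γδ- DN3b and DN4 libraries, 86.1 and 35.7 in their γδ+ counterparts, and 9.92 and 55.9 in Lat-KO γδ- and γδint, with its peak in DN4 γδ-. Birc5, which encodes survivin of the same complex, was at 7.61 CPM in WT DN3a, 354 and 375 in the γδ- DN3b and DN4 libraries, 343 and 191 in their γδ+ counterparts, and 43.2 and 195 in Lat-KO γδ- and γδint. It too was highest in DN4 γδ-. The other complex members, Incenp and Cdca8, were highest in DN3b γδ-, at 178 and 259 CPM.

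Among the genes of the spindle checkpoint and the anaphase-promoting complex, Cdc20 was at 9.62 CPM in WT DN3a, 135 and 124 in the γδ- DN3b and DN4 libraries, 97.8 and 66 in their γδ+ counterparts, and 29.7 and 113 in Lat-KO γδ- and γδint. Ube2c was at 6.44 CPM in WT DN3a, 451 and 434 in the γδ- DN3b and DN4 libraries, 399 and 237 in their γδ+ counterparts, and 56 and 249.7 in Lat-KO γδ- and γδint, the widest span of this group. Bub1, a checkpoint kinase, was at 1.23 CPM in WT DN3a, 41.1 and 41.1 in the γδ- DN3b and DN4 libraries, 39.4 and 19.2 in their γδ+ counterparts, and 4.49 and 20.9 in Lat-KO γδ- and γδint. In Lat-KO γδint, Ube2c and Bub1 lay below their DN3b γδ+ levels. Cdc20 lay above its DN3b γδ+ level by the total, but below it with TMM scaling, at 83.4 and 114 CPM, and at 4000 UMIs per barcode. Mad2l1, for the checkpoint protein MAD2, was at 9.19 CPM in WT DN3a, 54.1 and 67.4 in the γδ- DN3b and DN4 libraries, 61.3 and 33.8 in their γδ+ counterparts, and 14.3 and 33.3 in Lat-KO γδ- and γδint. Bub3, which the checkpoint shares with the BUB kinases, was at 112 CPM in WT DN3a, 199.7 and 193 in the γδ- DN3b and DN4 libraries, 224 and 158 in their γδ+ counterparts, and 159.6 and 275 in Lat-KO γδ- and γδint. The relative span of its 7 levels was the smallest of the group. The B cells of WT DN3a had Bub3 at 96.4 CPM, 85.8% of the thymocyte level. Bub1b and Ttk completed it, at 6.66 to 90.0 and 0.949 to 20.6 CPM.

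At the kinetochore, Cenpa, the centromeric histone H3 variant, was at 22.1 CPM in WT DN3a, 174 and 167 in the γδ- DN3b and DN4 libraries, 167 and 167 in their γδ+ counterparts, and 50.3 and 125 in Lat-KO γδ- and γδint. The 4 selected WT libraries lay close together for Cenpa, with DN4 γδ+ at the level of DN3b γδ+ by the total and at a log2 ratio of -0.28 to it with TMM scaling. Cenpe, a kinetochore motor, was at 5.14 CPM in WT DN3a, 94.2 and 93.9 in the γδ- DN3b and DN4 libraries, 85.3 and 55.4 in their γδ+ counterparts, and 19.3 and 70.5 in Lat-KO γδ- and γδint. Cenpf, a large kinetochore protein, was at 4.69 CPM in WT DN3a, 182 and 177 in the γδ- DN3b and DN4 libraries, 173 and 100.4 in their γδ+ counterparts, and 27.9 and 94.6 in Lat-KO γδ- and γδint. For Cenpe and Cenpf the DN4 γδ+ level was below that of DN3b γδ+. Ska1, Nuf2, Ndc80 and Spc25, which form the microtubule-binding face of the kinetochore, were at 0.837 to 7.63 CPM in WT DN3a and at 37.4 to 91.7 in DN3b γδ-. Knstrn, for the spindle protein kinastrin, was at 74.6 CPM in Lat-KO γδint and 61.1 CPM in DN3b γδ-, an order that TMM scaling turned to 54.8 and 76.1 CPM.

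Of the mitotic kinesins, Kif11, the motor that pushes spindle poles apart, was at 4.37 CPM in WT DN3a, 109 and 106 in the γδ- DN3b and DN4 libraries, 106 and 55.5 in their γδ+ counterparts, and 13 and 69 in Lat-KO γδ- and γδint. Kif23, the motor of the central spindle, was at 19.6 CPM in WT DN3a, 59.8 and 54.5 in the γδ- DN3b and DN4 libraries, 56.1 and 56.2 in their γδ+ counterparts, and 29.2 and 62.2 in Lat-KO γδ- and γδint. Kif11 had nearly the same level in the DN3b and DN4 γδ- and DN3b γδ+ libraries. Kif23 had its highest value in Lat-KO γδint by the total, while with TMM scaling it was at 45.7 CPM there and 74.6 CPM in DN3b γδ-. The other 6 kinesins were at 0.521 to 10.6 CPM in WT DN3a and each peaked in DN3b γδ-. Among spindle proteins, Tpx2, which activates Aurora A and seeds microtubules, was at 6.7 CPM in WT DN3a, 160.1 and 136 in the γδ- DN3b and DN4 libraries, 139 and 73.4 in their γδ+ counterparts, and 23.8 and 79 in Lat-KO γδ- and γδint. Hmmr, a spindle pole protein, was at 1.56 CPM in WT DN3a, 88.3 and 102 in the γδ- DN3b and DN4 libraries, 91.6 and 52.4 in their γδ+ counterparts, and 11.9 and 54.6 in Lat-KO γδ- and γδint. Tpx2 peaked in DN3b γδ- and Hmmr in DN4 γδ-. Kpna2, an importin α that binds spindle factors, was at 4.0 CPM in WT DN3a, 13.9 and 27.4 in the γδ- DN3b and DN4 libraries, 26 and 16.3 in their γδ+ counterparts, and 3.74 and 15.8 in Lat-KO γδ- and γδint. Its value is uncertain, since 64.6% of the 50-base words in the last 500 bases of its transcripts also lie in transcripts of other genes, most of them in Gm10184.

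Among chromosome proteins, Top2a, for topoisomerase II α, was at 49.2 CPM in WT DN3a, 733 and 601 in the γδ- DN3b and DN4 libraries, 623 and 325 in their γδ+ counterparts, and 104 and 334 in Lat-KO γδ- and γδint. Mki67, which encodes the proliferation antigen Ki-67 that coats mitotic chromosomes, was at 10.1 CPM in WT DN3a, 366 and 340.3 in the γδ- DN3b and DN4 libraries, 333 and 172 in their γδ+ counterparts, and 47 and 223 in Lat-KO γδ- and γδint. Both were highest in DN3b γδ-. Smc2, a condensin subunit, was at 44.9 CPM in WT DN3a, 195 and 208 in the γδ- DN3b and DN4 libraries, 242 and 120.1 in their γδ+ counterparts, and 58.5 and 149 in Lat-KO γδ- and γδint. Smc4, its partner in condensin, was at 446 CPM in WT DN3a, 409 and 465 in the γδ- DN3b and DN4 libraries, 434 and 437 in their γδ+ counterparts, and 467 and 651 in Lat-KO γδ- and γδint. Smc4 thus stayed within a narrow band where Smc2 ranged widely, and made up 46.8% of all member UMIs in WT DN3a, 27.5% in Lat-KO γδ- and 6.22 to 14% in the others. Among the remaining genes, the DNA helicase gene Pif1 was at 0.112 CPM in WT DN3a, 9.9 and 8.0 in the γδ- DN3b and DN4 libraries, 6.93 and 4.31 in their γδ+ counterparts, and 1.51 and 6.66 in Lat-KO γδ- and γδint. Its relative span was the widest of the 55. Ect2 and Anln, which shape the cleavage furrow, ranged from 5.4 to 37.1 and from 1.51 to 21.8 CPM.

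Against WT DN3a, the stage before selection, nearly all members were higher in the 6 other libraries. As log2 ratios of CPM, their median was 4.2 and 4.18 in the γδ- DN3b and DN4 libraries, 4.14 and 3.4 in their γδ+ counterparts, and 1.75 and 3.66 in Lat-KO γδ- and γδint. Over all genes with a mean of at least 5 CPM, 9101 in all and every member among them, the medians were -0.11, -0.23, -0.11, -0.018, 0.23 and 0.46. These 6 comparisons share the WT DN3a library, so they are not independent. In DN3b γδ-, 53 of 55 members were at least 2-fold higher, against 9.87% of all genes. In DN4 γδ- it was 53 against 7.59%, and in DN3b γδ+ 53 against 10.2%. In DN4 γδ+ it was 52 against 8.88%, in Lat-KO γδ- 41 against 3.38%, and in Lat-KO γδint 54 against 13.9%. No member was at least 2-fold lower in any of the 6, where in the same order 16.8, 19.8, 15.6, 7.86, 0.923 and 4.63% of all genes were.

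**Figure D2:**
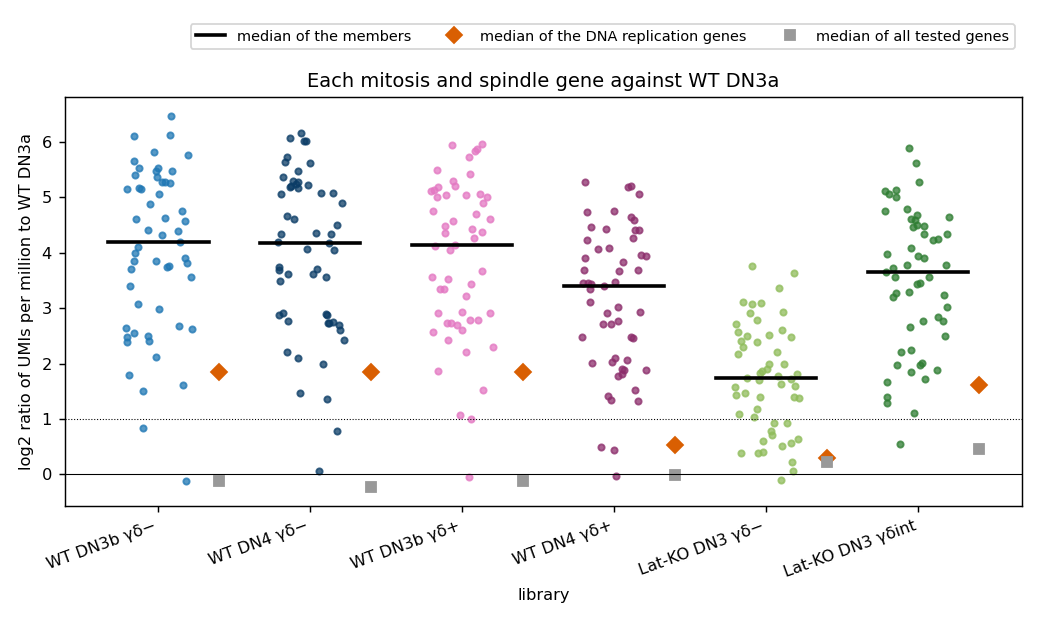
Log2 ratio of CPM to WT DN3a for the 55 members (points) in the 6 other libraries, with their median (black bar), the median of 45 DNA replication genes (diamond) and of all genes tested (square). The member medians lie at 1.75 in Lat-KO DN3 γδ- and 3.4 to 4.2 elsewhere, each above the replication genes, and the dotted line marks a 2-fold difference.

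The highest ratio in DN3b γδ- was that of Pif1, 6.47 (95% interval 5.35 to 7.92), a wide interval that comes from its few UMIs in WT DN3a. Ube2c followed at 6.13 (95% interval 5.98 to 6.29) and Kif2c at 6.11. The lowest were Smc4 at -0.13, Bub3 at 0.83 and Kif18a at 1.5. Pif1, Ube2c and Kif2c were also the highest in DN4 γδ+, at 5.27, 5.2 and 5.19, and Smc4, Kif18a and Bub3 the lowest there, at -0.029, 0.43 and 0.49. In DN4 γδ- the highest were Pif1, Ube2c and Hmmr, the last at 6.02, and the lowest Smc4, Bub3 and Kif18a, at 0.059, 0.78 and 1.36. DN3b γδ+ had Pif1, Ube2c and Hmmr at the top, at 5.96, 5.95 and 5.87, and Smc4, Bub3 and Kif18a at the bottom, at -0.040, 0.99 and 1.08. The sign of Smc4 turns to 0.27 in DN3b γδ- and 0.26 in DN3b γδ+ with TMM scaling in place of the total, which shifts each gene by 0.40 and 0.30 there.

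By role, the median log2 ratio of DN3b γδ- over WT DN3a was 5.16 for the 7 genes of mitotic entry, with Cdc25c the highest at 5.66 and Cdc25b the lowest at 3.4. It was 4.92 for the 6 spindle proteins, from 1.8 for Kpna2 to 5.82 for Hmmr. The 5 cytokinesis and other genes had 4.76, from Ect2 at 2.63 up to Pif1. The 6 kinase genes had 4.6, from Incenp at 3.56 to Plk1 at 5.77. The 8 kinetochore genes had 4.3, from Knstrn at 2.48 to Ska1 at 5.48, and the 8 kinesins 4.17. The 7 checkpoint genes had 3.81, between Bub3 and Ube2c, and the 8 chromosome proteins the lowest median, 2.46, with Mki67 at 5.18 at their top. The chromosome proteins had the lowest group median in each of the 6 comparisons with WT DN3a, down to 0.93 in Lat-KO γδ-, where 3 of 8 were at least 2-fold higher.

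In Lat-KO DN3 γδ-, where the member median was the smallest of the 6, the highest ratios were those of Pif1 at 3.76 (95% interval 2.57 to 5.25), Kif2c at 3.64 and Pimreg at 3.36. Pimreg encodes a regulator of mitosis, and Kif2c a kinesin that takes microtubules apart. The lowest were Kpna2 at -0.10 (95% interval -0.39 to 0.19), Smc4 at 0.067 (-0.13 with TMM scaling) and Kif18a at 0.23. The median of all 55 was 1.23 when each barcode was thinned to 4000 UMIs and 0.81 without the 8% of barcodes with most UMIs, when 21 members were at least 2-fold higher, against 2.82% of all genes. In Lat-KO DN3 γδint the highest were Pif1 at 5.9, Kif2c at 5.62 and Ube2c at 5.28, and the lowest Smc4 at 0.54, Kif18a at 1.1 and Bub3 at 1.29. Both Lat-KO libraries came from thymi that were not depleted of CD4+ and CD8+ cells, which differs from WT DN3a beside the genotype. CD71, which dividing cells carry, set WT DN3a apart from DN3b γδ- and was not part of the Lat-KO sort. The part of that gate in these ratios was not tested.

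Genes of G2 and M phase are known for short promoter elements, the cell cycle genes homology region (CHR) and CCAAT boxes, so CHR-type letters (either TTTGAA or else TTCGAA) and those of the CCAAT box were looked for on both strands. RefSeq promoter windows (GRCm38.p6, 250 bases before to 50 after the start) matched 44 of the 55 members. Of these, 35 (79.5%) held CHR-type letters, against 21.7% of the 27025 genes in the table. In 33 members it was TTTGAA and in 4 TTCGAA. The CCAAT box was in 33 members (75%) against 41.1%, and both kinds in 31 (70.5%) against 9.65%. TTTGGCGC or otherwise TTTCCCGC, letters of the E2F sites known from replication genes, were in 3 members (6.82%) against 1.8%. Of the further mitosis genes listed, 34 of 65 held CHR-type letters, 40 the CCAAT box and 8 E2F-type letters. The listed DNA replication genes had CHR-type letters in 6 of 35, the CCAAT box in 19 and E2F-type letters in 13. In 32 of the 35 members the CHR-type match nearest to the start lay within 50 bases of it, compared with 27.2% of the 5254 genes with a match in the first window listed for them. A match is a description of letters and not a bound site.

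The following 6 windows of 200 bases, from 150 before the start to 50 after it, are shown because CDK1, its B cyclins, PLK1, CDC20 and UBE2C carry the order from mitotic entry to anaphase, and because they show how the letters sit. They lie at chr10:69352863-69353062 (minus strand) for Cdk1, chr13:100786437-100786636 (minus strand) for Ccnb1, chr9:70421505-70421704 (minus strand) for Ccnb2, chr4:118437294-118437493 (minus strand) for Cdc20, chr7:122159285-122159484 (plus strand) for Plk1, chr2:164769779-164769978 (plus strand) for Ube2c. Capitals mark CHR-type letters and CCAAT on either strand, the latter reading ATTGG where they lie on the other one.
Cdk1: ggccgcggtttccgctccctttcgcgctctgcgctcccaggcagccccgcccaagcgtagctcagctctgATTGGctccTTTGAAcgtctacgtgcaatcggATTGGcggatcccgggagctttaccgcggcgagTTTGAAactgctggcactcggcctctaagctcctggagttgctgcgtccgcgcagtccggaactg
Ccnb1: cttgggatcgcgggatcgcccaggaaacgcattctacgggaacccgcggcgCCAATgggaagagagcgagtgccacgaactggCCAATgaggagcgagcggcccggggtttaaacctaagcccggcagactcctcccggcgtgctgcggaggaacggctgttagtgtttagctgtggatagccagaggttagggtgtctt
Ccnb2: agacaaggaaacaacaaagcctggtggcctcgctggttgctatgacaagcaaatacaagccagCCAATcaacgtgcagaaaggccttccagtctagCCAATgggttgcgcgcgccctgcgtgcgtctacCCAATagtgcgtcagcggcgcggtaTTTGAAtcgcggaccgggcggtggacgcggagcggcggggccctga
Cdc20: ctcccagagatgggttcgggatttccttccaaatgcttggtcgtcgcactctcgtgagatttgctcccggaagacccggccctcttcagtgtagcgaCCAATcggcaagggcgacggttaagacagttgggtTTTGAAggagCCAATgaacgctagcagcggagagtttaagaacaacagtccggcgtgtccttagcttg
Plk1: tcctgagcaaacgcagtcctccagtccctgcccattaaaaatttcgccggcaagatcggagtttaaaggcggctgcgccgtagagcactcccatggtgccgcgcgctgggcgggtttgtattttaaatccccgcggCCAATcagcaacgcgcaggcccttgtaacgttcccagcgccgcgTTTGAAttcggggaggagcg
Ube2c: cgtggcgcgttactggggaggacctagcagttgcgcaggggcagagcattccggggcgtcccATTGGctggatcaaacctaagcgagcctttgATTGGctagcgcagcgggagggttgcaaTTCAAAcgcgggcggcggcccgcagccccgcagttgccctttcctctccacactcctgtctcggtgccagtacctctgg
Cdk1 holds 2 CHR-type matches, Ccnb2, Cdc20, Plk1 and Ube2c 1 each, and Ccnb1 none in this stretch. CCAAT stands 3 times in Ccnb2, 1 time in Plk1 and 2 times in each of the others. Over WT DN3a, the median log2 ratio of members in DN3b γδ- was 3.9 for the 35 with CHR-type letters and 4.2 for the 9 without, which are Ccnb1, Birc5, Mad2l1, Cenpe, Kif18a, Nusap1, Ncaph, Nuf2 and Knstrn. In Lat-KO γδint over Lat-KO γδ- these medians were 1.82 and 1.87. Ccna2, Cdc25c, Aurkb, Incenp, Cdca2, Kif20a, Tpx2, Smc4, Ska1, Pif1 and Pimreg had no window.

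Between the DN3b libraries of the γδ and αβ paths, most members differed little. The median log2 ratio of DN3b γδ+ over DN3b γδ- was -0.15, and no member reached 2-fold in either direction, where 5.05% of all genes were at least 2-fold higher and 2.93% lower. Kpna2 was the highest, at 0.90 (95% interval 0.84 to 0.96), then Cdk1 at 0.62 (95% interval 0.60 to 0.63) and Smc2 at 0.32. The lowest were Incenp, the scaffold of the passenger complex, at -0.64 (95% interval -0.67 to -0.62), Ccnf at -0.55 and Bub1b at -0.53. The group medians ran from -0.46 for mitotic entry to -0.038 for chromosome proteins, and Cdk1 thus stood apart from its cyclins, with Ccna2 at -0.25, Ccnb1 at -0.53 and Ccnb2 at -0.15. DN3b γδ- cells were sorted as CD71+, and the part of that gate was not tested.

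Within the αβ path, DN4 γδ- over DN3b γδ- gave a median of -0.091, and again no member reached 2-fold, where 0.648% of all genes were at least 2-fold higher and 1.54% lower. Kpna2 at 0.97 (95% interval 0.92 to 1.03), Cdk1 at 0.49 (95% interval 0.47 to 0.51) and Mad2l1 at 0.32 were the highest, and Incenp at -0.66 (95% interval -0.68 to -0.64), Cdc25b at -0.64 (95% interval -0.69 to -0.60) and Cdc25c at -0.44 the lowest. Kpna2 and Cdk1 led, and Incenp came last, in DN4 γδ- and in DN3b γδ+ alike, but both ratios share the DN3b γδ- library as their denominator and are no independent readings. Incenp was at 178 CPM in DN3b γδ- and at 112 and 114 CPM in DN4 γδ- and DN3b γδ+.

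Within the γδ path, the members were lower in DN4 γδ+ than in DN3b γδ+, with a median log2 ratio of -0.79 against 0.10 over all genes. Of the 55, 10 were at least 2-fold lower, against 6.62% of all genes, and none 2-fold higher, against 11.1%. The lowest were Aurkb at -1.27 (95% interval -1.33 to -1.21), Ccna2 at -1.22 (95% interval -1.27 to -1.17) and Cdca8 at -1.1. The other end held Cdc25b at 0.52 (95% interval 0.45 to 0.59), Smc4 at 0.011 and Cenpa at 0.0018, with Kif23 beside Cenpa at 0.0017. Cdc25b is at its B cell level in both libraries. The count of 10 differed between settings. With TMM scaling 35 members were at least 2-fold lower, against 12.9% of all genes. At 4000 UMIs per barcode it was 48, against 11% of all genes by their expected thinned counts. With mitochondrial, ribosomal and haemoglobin genes left out of the total it was 3, against 5.76%. Under each of these Cdc25b kept its sign (0.24, 0.27 and 0.58), while Cenpa went to -0.28 and -0.28 in the first and second. Median depth per thymocyte barcode was 15392 UMIs in DN3b γδ+ and 6418 in DN4 γδ+.

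**Figure D3:**
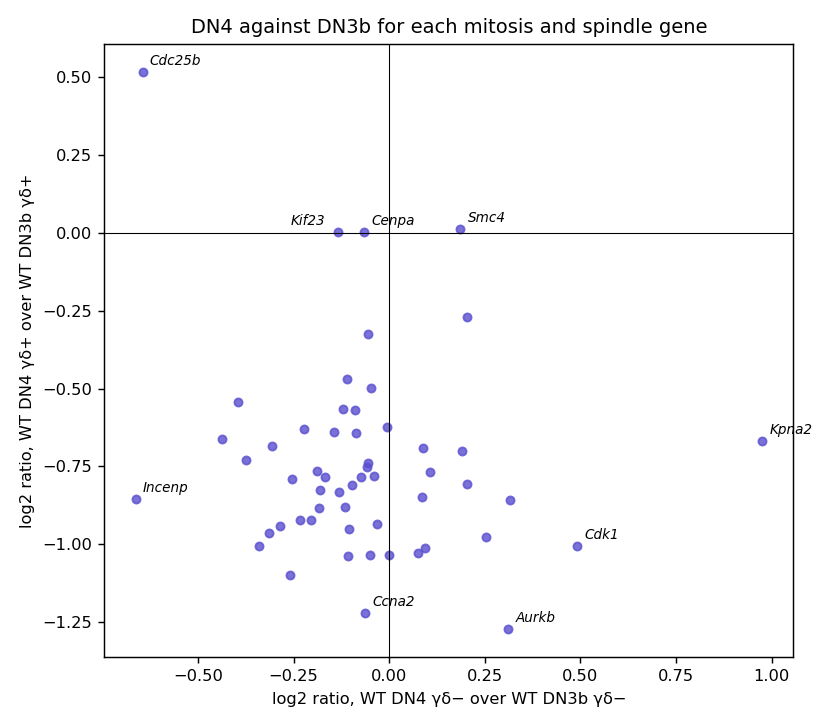
Log2 ratio of DN4 over DN3b for each of the 55 members (points) on the αβ path (horizontal axis) and on the γδ path (vertical axis), with the genes at the edges named. Most points lie near 0 on the horizontal axis, where the median is -0.091, and below 0 on the vertical axis, where it is -0.79, and Cdc25b stands alone at the upper left.

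In the absence of LAT, cells with surface γδ TCR carried more of these transcripts than cells without it. The γδint cells over the γδ- cells of Lat-KO mice gave a median log2 ratio of 1.77, with 50 of 55 members at least 2-fold higher against 4.95% of all genes, and none lower against 3.48%. The highest were Ska1 at 2.57, Cdk1 at 2.56 (95% interval 2.47 to 2.65) and Aurkb at 2.5 (95% interval 2.35 to 2.64). Smc4 at 0.48, Bub3 at 0.78 and Kif18a at 0.87 were the lowest. The condensin genes Ncapd2 at 0.96 and Ncaph, just short of 2-fold at 1.0, were the other two under 2-fold. Since γδint stands apart by its ribosomal protein share, the ratio was also read by transcript length: the 7 members under 2000 nt had a median of 1.94 and the 20 of 4000 nt or more 1.71, where other genes of these lengths had 0.25 and 0.15. Over 1040 to 2075 genes of each length class, not members alone, the spiked B cells of these libraries gave medians of 0.30 to 0.36. The members summed to 478 CPM in the B cells of the γδ- library and 1176 CPM in those of the γδint library, beside 1701 and 4658 CPM in thymocytes, and the part of this background in the ratio was not tested. Without ribosomal, mitochondrial and haemoglobin genes in the total the member median was 1.57.

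Set against WT DN3b γδ+ cells, Lat-KO DN3 γδint had lower levels of most members. The median log2 ratio was -0.49 where all genes had 0.55. Ncaph, a condensin subunit, at -1.21 (95% interval -1.32 to -1.1), was the one member at least 2-fold lower (6.91% of all genes), followed by Kif4 at -0.95 and Bub1 at -0.91, and none was at least 2-fold higher (27.3% of all genes). Higher in γδint were Pimreg at 0.85 (95% interval 0.75 to 0.94), Smc4 at 0.58 (95% interval 0.56 to 0.60) and Knstrn at 0.56 (95% interval 0.50 to 0.62). The genes of mitotic entry had a median of -0.10, and spindle proteins -0.73. TMM scaling shifts each gene by -0.67 in this pair and brought 32 members to at least 2-fold lower, against 15.3% of all genes. Thinning to 4000 UMIs brought 25. By expected thinned counts it was 28, against 8.1% of all genes. With TMM scaling the sign of Cdc20 turned to -0.45 from 0.21, that of Smc4 to -0.082 and that of Knstrn to -0.10, while Pimreg was at 0.18.

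A level summed over a library cannot tell fewer cells with these transcripts from fewer transcripts in each cell. Member UMIs were therefore counted per barcode after thinning each to 4000 UMIs and leaving out shallower barcodes. Those left out were 356 of 6818 in WT DN3a and 842 of 18515 and 1127 of 12942 in the γδ- DN3b and DN4 libraries. In their γδ+ counterparts they were 1510 of 12361 and 1769 of 8703, and in Lat-KO γδ- and γδint 343 of 6468 and 737 of 5274. The shares describe the deeper barcodes only, and the part left out was largest in DN4 γδ+. At least 10 member UMIs were found in 2.06% of WT DN3a barcodes (1.73 to 2.43%, exact Clopper-Pearson 95% interval, n = 6462). The share was 77.4 and 74.7% in the γδ- DN3b and DN4 libraries, 65.7% in DN3b γδ+ and 17.2% (16.4 to 18.1%) in DN4 γδ+. In the Lat-KO libraries it was 5.65% (5.08 to 6.26%) in DN3 γδ- and 26.1% (24.8 to 27.4%) in DN3 γδint. Without thinning the shares were 19.3, 93.9, 91.1, 91.5, 28.5, 23.2 and 42.1% in the same order. In the spiked B cells, also at 4000 UMIs, 0 of 42 reached 10 member UMIs in WT DN3a, which allows a share of up to 7.14% when the limit of a count of 0 is set at 3 counts of the total. It was 6 of 36 and 5 of 27 in the γδ- DN3b and DN4 libraries, 7 of 52 and 0 of 59 in their γδ+ counterparts, and 0 of 49 and 2 of 27 in Lat-KO γδ- and γδint. Only 27 to 59 of the 118 to 264 B cell barcodes of a library were deep enough to thin, and doublets among them were not called. The WT DN3a, DN4 γδ+ and Lat-KO γδ- limits of the B cells by this rule were 7.14, 5.08 and 6.12%. The thymocyte shares of WT DN3a and Lat-KO γδ- lie within what the B cell count of 0 allows. With so few B cells even a count of 0 sets a limit above those shares, so it cannot decide whether they exceed background. In WT DN3a and Lat-KO γδ- the median B cell held 1 member UMI, and the richest thymocyte barcodes held 78 and 124. Both γδ- WT gates took CD71+ cells, and the part of that gate in their high shares was not tested.

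The class is a cut through a range. Between 8 and 11 member UMIs, near the cut, lay 4.38 to 16.8% of the barcodes of a library. Counted without Smc4, which is abundant in each library (an alternative chosen after seeing the data), the share was 1.02% in WT DN3a, 4.08% in Lat-KO γδ- and 18.9% in Lat-KO γδint. Median member UMIs per barcode were 3 in WT DN3a, 20, 17 and 16 in DN3b γδ-, DN4 γδ- and DN3b γδ+, 4 in DN4 γδ+ and in Lat-KO γδ-, and 6 in Lat-KO γδint. DN4 γδ+ and both Lat-KO libraries thus paired a low median with a tail of barcodes rich in member UMIs. The 5% of barcodes with most member UMIs held 38.5% of them in DN4 γδ+, 31.4% in Lat-KO γδint and 31% in Lat-KO γδ-. It was 17.3% in WT DN3a and 13.2 to 16.6% in both γδ- stages and DN3b γδ+.

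**Figure D4:**
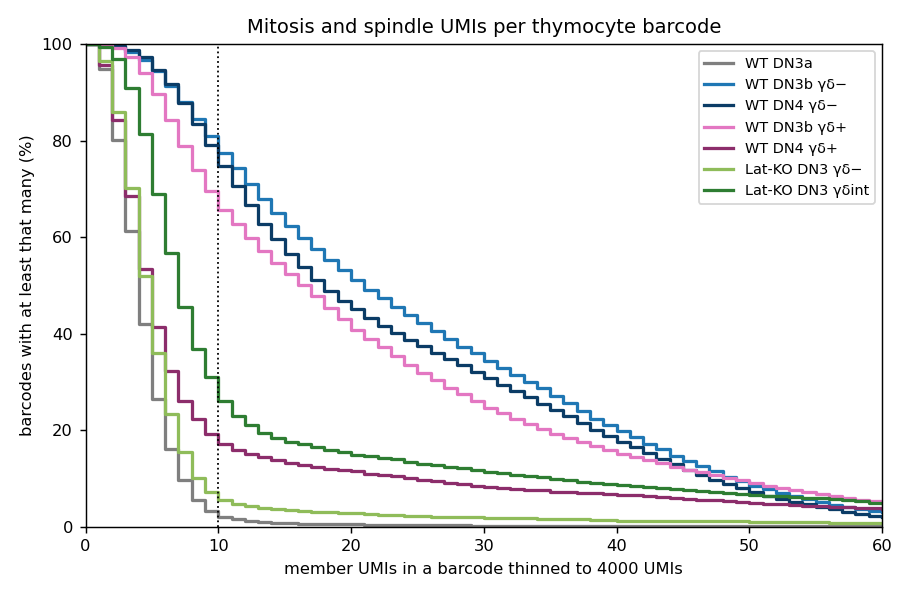
Share of thymocyte barcodes (vertical axis) that hold at least a given number of member UMIs (horizontal axis) after thinning to 4000 UMIs, 1 line per library, with the limit of 10 dotted. At that limit the lines stand at 77.4, 74.7 and 65.7% in DN3b γδ-, DN4 γδ- and DN3b γδ+, 26.1% in Lat-KO γδint, 17.2% in DN4 γδ+, 5.65% in Lat-KO γδ- and 2.06% in WT DN3a.

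In barcodes with at least 10 member UMIs, the genes could be compared between cells of a like class, although the class was cut on these same genes and the ratios are a description. DN4 γδ+ over DN3b γδ+ had a median log2 ratio of 0.32 there, the opposite sign to that over all barcodes, with Cdc25b at 1.39 (82.8 and 31.7 CPM, beside 31.2 and 25.2 CPM in all B cells), Cenpa at 1.02 and Ccnb2 at 0.93 the highest and Aurkb at -0.12 and Ccna2 at -0.063 the lowest. Lat-KO γδint over DN3b γδ+ had 0.27, with Pimreg at 1.74, Knstrn at 1.24, Cdc20 at 0.96 and Smc4 at 0.94 the highest and Ncaph at -0.56 the lowest. DN3b γδ+ over DN3b γδ- and DN4 γδ- over DN3b γδ- kept Kpna2 (at 0.95 and 0.97) and Cdk1 (at 0.71 and 0.49) as the highest. By role, the kinetochore genes made up 13.9% of the member UMIs of these barcodes in DN4 γδ+ and 11.3 to 11.7% in both γδ- stages, DN3b γδ+ and Lat-KO γδint. Cenpa alone made up 4.5% and 2.64 to 2.82%, and the other 7 kinetochore genes 9.43% and 8.56 to 8.85%, so most of the difference was in Cenpa. In WT DN3a and Lat-KO γδ- the share of the class lies within the B cell limit, and the class held 133 and 346 barcodes. There the kinetochore genes made up 10.4 and 12.9%, and Cenpa alone 3.51 and 4.32%. The Cenpa share of Lat-KO γδ- was thus near that of DN4 γδ+.

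Single members showed in how many cells a transcript was caught. At 4000 UMIs, the share of barcodes with a UMI of Cdk1 was 1.76% in WT DN3a, 35.1 and 42.7% in the γδ- DN3b and DN4 libraries, 43.7 and 11.8% in their γδ+ counterparts, and 3.05 and 17.5% in Lat-KO γδ- and γδint. The share with Top2a was 11.4% in WT DN3a, 77.6 and 71.5% in the γδ- DN3b and DN4 libraries, 72.7 and 24.4% in their γδ+ counterparts, and 13.7 and 32.3% in Lat-KO γδ- and γδint. For both genes the shares of DN4 γδ+ stood far below those of DN3b γδ+ and closer to Lat-KO γδint. Without thinning, the 7 shares were 4.24, 71.4, 77.4, 74.9, 18.9, 5.6 and 25.6% for Cdk1 and 20.2, 92.1, 90.7, 90.4, 34.1, 21.6 and 41.1% for Top2a. In B cells, Cdk1 was found in 0 of 42 in WT DN3a, 8 of 36 and 7 of 27 in the γδ- DN3b and DN4 libraries, 12 of 52 and 1 of 59 in their γδ+ counterparts, and 0 of 49 and 2 of 27 in Lat-KO γδ- and γδint. Top2a was found there in 3 of 42, 12 of 36, 11 of 27, 17 of 52, 7 of 59, 2 of 49 and 2 of 27, in the same order. The share with Ube2c was 0.913% in WT DN3a, 52.1 and 51.7% in the γδ- DN3b and DN4 libraries, 43.8 and 16.5% in their γδ+ counterparts, and 3.64 and 19% in Lat-KO γδ- and γδint. Its B cell counts were uneven, with 26 of 52 in the DN3b γδ+ library against 7 of 36 in DN3b γδ- and 0 of 59 in DN4 γδ+. The share in DN3b γδ+ thymocytes was thus not above that of the B cells there, and the part of free RNA was not tested. The share with Smc4 was 77.3% in WT DN3a, 75.6 and 77.9% in the γδ- DN3b and DN4 libraries, 76.4 and 64.2% in their γδ+ counterparts, and 79.5 and 84.5% in Lat-KO γδ- and γδint, with DN4 γδ+ the lowest, beside 8 of 42 B cells in WT DN3a and 14 of 27 in Lat-KO γδint.

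DNA replication precedes mitosis in each division, and 45 replication genes were read beside the members. They summed to 2092 CPM in WT DN3a, 6848 and 6829 in the γδ- DN3b and DN4 libraries, 6904 and 2770.1 in their γδ+ counterparts, and 2409 and 5718 in Lat-KO γδ- and γδint. Members summed to 1.34 times the replication genes in DN4 γδ+, the one library where they were the higher, to 0.456 times in WT DN3a and to 0.706 to 0.959 times in the others. In DN4 γδ+ over DN3b γδ+ the replication genes had a median log2 ratio of -1.3, with 40 of 45 at least 2-fold lower where 6.62% of all genes were, beside -0.79 and 10 of 55 for the members. Ung, Tk1 and Dscc1, for a uracil-DNA glycosylase, thymidine kinase and a cohesion clamp-loader subunit, were the lowest at -1.75, -1.75 and -1.72, and Gins4, Pola2 and Rfc2 the highest at -0.49, -0.89 and -0.94. Over WT DN3a the replication medians were 1.85, 1.85, 1.85, 0.52, 0.29 and 1.62. Rrm2 and Tk1, both of nucleotide supply, had the highest and next highest ratio in DN3b γδ-, at 4.33 and 3.97, followed by Mcm10 at 3.41, and Uhrf1 at 0.0062, Prim2 at 0.061 and Gins4 at 0.71 the lowest.

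Within single barcodes thinned to 4000 UMIs, the share with at least 10 replication UMIs was 15.8% in WT DN3a, 95.2 and 94.2% in the γδ- DN3b and DN4 libraries, 92.2 and 19.5% in their γδ+ counterparts, and 19 and 64.3% in Lat-KO γδ- and γδint. In the spiked B cells it was 0 of 42 in WT DN3a, 7 of 36 and 7 of 27 in the γδ- DN3b and DN4 libraries, 14 of 52 and 0 of 59 in their γδ+ counterparts, and 1 of 49 and 2 of 27 in Lat-KO γδ- and γδint. Of the replication-rich thymocyte barcodes, 78.7, 77.1 and 67.3% also held at least 10 member UMIs in DN3b γδ-, DN4 γδ- and DN3b γδ+. Over all thinned barcodes of these libraries the share was 77.4, 74.7 and 65.7%, nearly the same. In DN4 γδ+ it was 54.6% (51.9 to 57.3%) against 17.2% over all, and in Lat-KO γδint 35.2% (33.5 to 37%) against 26.1%. The overlap is not given for WT DN3a and Lat-KO γδ-, where the member-rich share lies within the B cell limit. WT DN4 γδ+ and Lat-KO γδint stood in reverse order in the 2 readouts of these libraries: γδint had the higher share of replication-rich barcodes, and DN4 γδ+ the higher share of member-rich barcodes among them. Of the member-rich barcodes, 61.8% in DN4 γδ+, 87% in Lat-KO γδint and 96.8% in DN3b γδ- were also replication-rich. Over all thinned barcodes these shares were 19.5, 64.3 and 95.2%. Sum and cut follow the number of genes in each list, so the 2 classes are not of equal reach, and the part of free RNA in them was not tested.

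**Figure D5:**
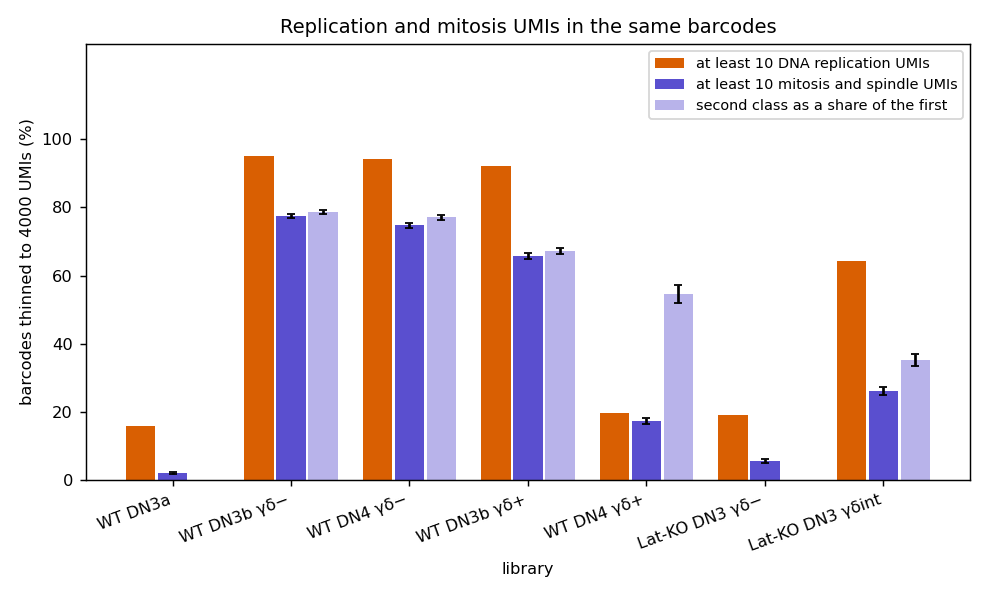
Share of thymocyte barcodes thinned to 4000 UMIs (vertical axis) with at least 10 replication UMIs (orange), with at least 10 member UMIs (dark purple) and with both, as a share of the orange class (light purple), in each library, with exact 95% intervals on the purple bars. The light bar is left out in WT DN3a and Lat-KO γδ-, where the share of the dark class lies within the limit set by few B cells. In DN4 γδ+ the light bar stands at 54.6% above a 19.5% orange bar, and in Lat-KO γδint at 35.2% beside 64.3%.

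A further 80 genes of mitosis outside the 55, listed for this comparison, followed the members at lower ratios. Over WT DN3a their median log2 ratios were 2.46 and 2.39 in the γδ- DN3b and DN4 libraries, 2.49 and 1.38 in their γδ+ counterparts, and 0.84 and 2.06 in Lat-KO γδ- and γδint. Of the 80, 64 were at least 2-fold higher in DN3b γδ-, against 9.87% of all genes, with Depdc1b at 6.28, Iqgap3 at 5.88 and Depdc1a at 5.75 the highest. Ensa, for an inhibitor of the phosphatase PP2A, was the lowest at -0.88, then Pttg1, for securin, at -0.29 and Cenpt at -0.060. In DN4 γδ+ over DN3b γδ+, 20 of the 80 were at least 2-fold lower, against 6.62% of all genes, led by Mybl2 at -1.81, Pkmyt1 at -1.66 and Pbk at -1.54, and Pttg1 at 0.39, Ensa at 0.23 and Cenpt at 0.16 were the highest.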

How the data were processed

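Single-cell 3' libraries (10x Chromium v3) of 7 sorted thymocyte populations were analysed. The deposited matrices hold raw UMI counts per gene and barcode, which the authors made with Cell Ranger (4.0.0 per the file headers, 5.0.1 per the labels) on mm10 with a reporter feature added, neither scaled nor corrected. The filter of the study (200 genes, 15% mitochondrial UMIs) was applied to barcodes. Thymocyte barcodes held at most 1 UMI of Cd79a, Cd79b and Ms4a1, and B cell barcodes at least 10 and at least 2 times their Cd3 UMIs. The limit of 1 leaves out deep barcodes more often, and an alternative let it rise with depth. In each library 472 to 1470 barcodes met neither limit and were left out. Doublets were not called, and an alternative left out the 8% of barcodes with most UMIs.

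UMIs were summed per library and scaled to CPM. Log2 ratios have exact conditional binomial 95% intervals, levels exact Poisson and shares Clopper-Pearson ones, for counting error only. A count of 0 entered as 3 counts. The whole table was computed for genes with a mean of at least 5 CPM. UMIs per barcode were compared after thinning to 4000. The ratio script was tested on simulated data. Intervals came from scipy 1.17.1 under Python 3.11.15, tables from pandas 2.3.3 with numpy 2.4.6, figures from matplotlib 3.10.9 and TMM factors alone from edgeR 4.0.16 in R 4.3.3. Positions and transcripts came from GENCODE vM21 and promoters from RefSeq.

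Named genes are 26 members fixed with the design, the 3 highest and 3 lowest of each comparison and the extremes of each role and of the added lists. Members and lists were chosen with earlier results of these data known.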

Additional observations from a re-analysis of the deposited data

Results flagged for a closer look

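On the step from DN3b to DN4, Cdc25b and Kpna2 went opposite ways on the 2 paths. The log2 ratio of Cdc25b, a phosphatase gene that acts on CDK1, was -0.64 without (αβ path) and 0.52 with surface γδ TCR (γδ path). That of Kpna2, an importin α gene, was 0.97 on the αβ path and -0.67 on the γδ path. Both genes were singled out because they had ratios of at least 0.5 in size and of opposite sign, a pair of signs that the 10 other settings which keep them did not turn. Leaving out members high in B cells removes both genes and says nothing of them. Cdc25b was at 35.6 and 22.8 CPM in γδ- DN3b and DN4 thymocytes beside 54.8 and 38.7 CPM in their B cells. In the γδ+ counterparts it was at 25.9 and 37.1 CPM beside 25.2 and 31.2 CPM. Its thymocyte level thus did not stand clearly above that of the B cells, and the part of free RNA in it was not tested. Kpna2 in B cells was at 0 and 11.4 CPM in the γδ- and 17.5 and 4.93 CPM in the γδ+ libraries, beside 13.9, 27.4, 26 and 16.3 CPM in thymocytes, and the part of this background was not tested. With 1 library per group, the difference between the paths was not tested. On the γδ path Cdc25b went down to 0.22 without the 8% of barcodes with most UMIs and to 0.24 with TMM scaling, and Kpna2 to -1.67 and -0.95. Kpna2 is uncertain because of the sequence it shares with Gm10184.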

How the results depend on the processing

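Under 11 other settings, 121 medians were recomputed, of which 92 stayed within the 95% order-statistic interval of the median over the 55 members and 29 moved beyond it. That interval reflects the spread between members, which are not replicates, so these counts do not measure how stable a median is. The median whose sign changed, that of DN4 γδ- over DN3b γδ-, went from -0.091 to 0.14 when leaving out members high in B cells left 2 genes. Without the 8% of barcodes with most UMIs, the median log2 ratio over WT DN3a was 5.15 and 4.89 in the γδ- DN3b and DN4 libraries, 4.87 in DN3b γδ+ and 0.81 in Lat-KO γδ- (21 members at least 2-fold higher, 2.82% of all genes), that of DN4 γδ+ over DN3b γδ+ -1.69 (48 at least 2-fold lower, 11.3% of all genes), of Lat-KO γδint over γδ- 2.48 and of γδint over DN3b γδ+ -1.21 (36 lower, 8.15% of all genes). Members over 20% of the thymocyte level in B cells were left out next. That limit rests on few B cell UMIs in WT DN3a and leaves few genes. The medians over WT DN3a then were 5.02 in DN3b γδ- (8 members left), 4.79 in DN3b γδ+ (4 left), 3.97 in DN4 γδ+ (27 left) and 2.51 in Lat-KO γδ- (24 left). At least 2-fold higher over WT DN3a were 8 of 8 and 4 of 4 left in the γδ- DN3b and DN4 libraries, 4 of 4 and 26 of 27 in their γδ+ counterparts, 23 of 24 in Lat-KO γδ-, 15 of 15 in Lat-KO γδint, and 16 of 16 for γδint over γδ-. For DN3b γδ+ over DN3b γδ- the setting leaves 1 gene, at -0.52. At least 2-fold lower were 2 of 7 left for DN4 γδ+ and 0 of 3 left for γδint, both over DN3b γδ+.

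For thinning, the shares of all genes are by expected thinned counts. Thinned to 4000 UMIs, the medians were 1.23 (Lat-KO γδ- over WT DN3a), -0.29 (DN3b γδ+ over DN3b γδ-), -0.14 (DN4 γδ- over DN3b γδ-), -1.39 (DN4 γδ+ over DN3b γδ+, 48 lower, 11% of all genes), 1.96 (γδint over γδ-) and -0.95 (γδint over DN3b γδ+, 25 lower or 28 by expected counts, 8.1%). As a mean share per barcode they were 1.26 (Lat-KO γδ- over WT DN3a), -0.14 (DN4 γδ- over DN3b γδ-), -1.24 (DN4 γδ+ over DN3b γδ+, 45 lower, 10.0% of all genes) and -1.11 (γδint over DN3b γδ+, 30 lower, 8.45%). TMM scaling gave -1.07 with 35 lower and 12.9% of all genes (DN4 γδ+ over DN3b γδ+), 1.61 (γδint over γδ-) and -1.15 with 32 lower and 15.3% (γδint over DN3b γδ+). A total without mitochondrial, ribosomal and haemoglobin genes gave -0.048 with 1 higher and 0.78% of all genes (DN4 γδ- over DN3b γδ-), 3 lower and 5.76% (DN4 γδ+ over DN3b γδ+), 1.57 (γδint over γδ-) and -0.65 with 6 lower and 8.08% (γδint over DN3b γδ+), where the members' count is near that of all genes. The cause of these shifts was not tested, apart from the fewer members that leaving out members leaves.

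The share of barcodes rich in member UMIs, in the order WT DN3a, γδ- DN3b and DN4, γδ+ DN3b and DN4, Lat-KO γδ- and γδint, was 26.5, 94.3, 94.7, 89.5, 41.5, 36 and 68.9% with at least 5 UMIs, 0.511, 51.1, 45.1, 40.9, 11.5, 2.78 and 14.9% with at least 20, and 1.02, 73.5, 69, 61.1, 14.3, 4.08 and 18.9% without Smc4. No paired analysis was possible because each group has 1 library and no test was made.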

Other observations

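In the γδint over the γδ- cells of Lat-KO mice, the 80 further mitosis genes had a median log2 ratio of 1.43, with 51 at least 2-fold higher, against 4.95% of all genes. Cdca5, for the cohesion factor sororin, was at 2.41, the kinetochore gene Knl1 at 2.32 and Fbxo5, which encodes the inhibitor EMI1 of the anaphase-promoting complex, at 2.32. Pttg1 (securin) at -0.72, Anapc11 at -0.62 and Cks2 at -0.44 were lower in γδint. Against WT DN3b γδ+, Cks2, for a CDK subunit, was at -2.48 in γδint, Ccdc34 at -1.59 and Esco2 at -1.47, and Cenpt at 1.06, Reep4 at 0.96 and Cdc16 at 0.88 were the highest. Of the replication genes, γδint over γδ- was highest for Rrm2 at 2.37, Dscc1 at 2.33 and Cdc45 at 2.32 and lowest for Prim2 at 0.21, Uhrf1 at 0.55 and Pold1 at 0.77.

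Between the paths, Pttg1 at 0.89, Kif18b at 0.84 and Cks2 at 0.52 were the further mitosis genes most above DN3b γδ- in DN3b γδ+, and Anapc5 at -0.89, Mad1l1 at -0.68 and Iqgap3 at -0.62 the lowest. In DN4 γδ- over DN3b γδ- they were Cks2 at 0.63, Kif18b at 0.53 and Gtse1 at 0.50 at the top and Kifc1 at -0.94, Anapc11 at -0.77 and Anapc5 at -0.72 at the bottom. The replication genes Dscc1 and Pcna, the latter for the sliding clamp, were at 1.01 and 0.69 in DN3b γδ+ over DN3b γδ-, and Pcna at 0.71 in DN4 γδ- over DN3b γδ-.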
